A study of Saccharomyces cerevisiae CEN.PK113-7D with 6 samples.

Results

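The data described here are the transcript signals of the yeast Saccharomyces cerevisiae in steady-state chemostat culture, measured on the 3 arrays labelled Chemostat (replicates 4, 8 and 9) of the 6 arrays in the series. The other 3 arrays hold batch cultures of the same strain and were not set against these. All cultures were of CEN.PK113-7D, a haploid laboratory strain of mating type a without a stated mutation or treatment, and grew on glucose. Pellets were frozen, total RNA was extracted and labelled with biotin, and each array holds 1 sample. The submitters also sequenced RNA of these extractions so that both methods could be compared, and those reads were not analysed here. No source used here gives the dilution rate or the limiting nutrient, and nothing says that the 3 samples came from separate cultures, so the spread between them may be partly technical. Each array gave a log2 signal for 5449 S. cerevisiae genes out of 10928 probe sets, and all values below are log2 signals unless another scale is named.

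A chemostat is fed fresh medium and drained at the same constant rate, so at steady state the cells grow as fast as they are washed out and the nutrient that limits growth stays scarce. Yeast with plentiful glucose ferments it to ethanol and represses the genes for respiration, for other carbon sources and for high-affinity sugar uptake. At low residual glucose these genes are known to be released from repression, and slow growth is known to go with higher levels of stress protein transcripts. The groups of genes below follow those roles: sugar entry, glycolysis, ethanol and acetate, respiration, stress, protein synthesis, nutrient uptake, and genes that a haploid vegetative cell is not expected to use.

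Signals of the 5449 genes lay between 4.99 and 13.30, with a median of 7.97, and the top decile began near 10.25. An array signal depends on how strongly each probe set binds as well as on the transcript, and is not scaled to gene length. The order of genes given here is therefore one of signals, not of transcript numbers, and differences between genes are differences in signal. The RNA came from whole cultures, so few transcripts in every cell and many transcripts in few cells cannot be told apart. In the annotation used, 1746 of the array's probe sets were for transcripts of another yeast, Schizosaccharomyces pombe, which was not in the culture. Their median was 5.15, and their 95th percentile, 5.89, 5.89 and 5.90 on replicates 4, 8 and 9, was used as the floor. A gene was called at the floor when its signal was at or below that value on all 3 arrays. A further 3470 probe sets had no gene in the annotation, and some of them may be of S. pombe. They did not enter the floor, and with them 716 genes would be at it. By the rule as used 281 genes (5.16%) were at the floor, 40 were at or below it on 1 or 2 arrays, and 5128 were above it on every array. Summed on the linear scale, the top decile of genes (544 genes, 9.98%) held 49.0% of the signal and the genes at the floor 0.422%.

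**Figure D1:**
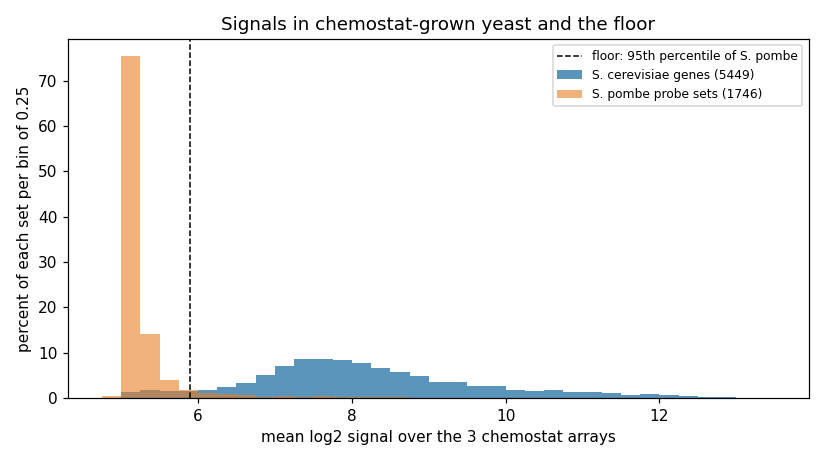
Histogram of the mean log2 signal over the 3 chemostat arrays for S. cerevisiae genes and, for background, S. pombe probe sets, with the floor as a dashed line. The genes centre on 7.97 and the S. pombe probe sets on 5.15, and 281 genes were at the floor on all 3 arrays.

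The arrays resembled each other closely, but replicate 4 stood apart from replicates 8 and 9. Pearson's r across genes was 0.999 between replicates 8 and 9, 0.996 between replicates 4 and 8, and 0.995 between replicates 4 and 9. These are correlations across genes, which are not independent replicates. The median difference between 2 arrays was 0.0403 for replicates 8 and 9, against 0.0559 and 0.0725 for the pairs with replicate 4. No gene differed by over 1 log2 unit between replicates 8 and 9, whereas 9 and 10 genes did between replicate 4 and each of them. The median SD of a gene over the 3 arrays was 0.0464, and 4718 genes had an SD under 0.1. Means below carry that spread, as mean ± SD over the 3 arrays, and values in sets of 3 are in the order replicate 4, 8 and 9.

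The mating type in the strain's description was checked against markers of a cells, of alpha cells and of haploid cells. All 7 a-cell markers were above the floor on every array, and 5 of them lay above the all-gene median, with a list median of 8.88. MFA1 and MFA2, the a-factor pheromone genes, had 9.90 ± 0.41 and 9.85 ± 0.36, and STE2, the receptor for alpha-factor, had 8.88 ± 0.37. AGA2, an agglutinin subunit, had 9.13 and STE6, the a-factor exporter, had 8.26, while BAR1, the protease that degrades alpha-factor, had 7.38 and ASG7 had 6.70. Of the alpha-cell markers, MF(ALPHA)2 was at the floor at 5.54, while MF(ALPHA)1, SAG1 and STE3 had 6.55, 6.98 and 7.13. These 3 genes are not transcribed in a cells in textbook accounts and still lay above the floor, though below the median gene, and the a-cell marker ASG7 was dimmer than SAG1 and STE3. A signal between the floor and about 7 therefore does not by itself show a transcript. The haploid markers STE4, STE18, GPA1, FUS3 and HO lay between 7.87 and 8.87.

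The brightest transcripts were those of glycolysis, the ethanol and acetate pathways, stress proteins and the cell wall. TDH3, the main glyceraldehyde-3-phosphate dehydrogenase (locus YGR192C), was first on each array with 13.29, 13.32 and 13.28. HSP12, a small membrane-associated stress protein (locus YFL014W), came next with 13.09, 13.18 and 13.14. TEF2, translation elongation factor 1 alpha, followed with 13.09, 13.10 and 13.08. Its probe set carries a suffix for shared probes, and its near-identical copy TEF1 was not analysed here, so the TEF2 signal may hold both. These 3 genes kept ranks 1 to 3 on all 3 arrays.

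Below them the signals fell slowly, and neighbours in the order were mostly not separable. The drop between the first and the thirtieth gene was 0.89, and 36 genes lay within 1 log2 unit of TDH3. Of the 29 pairs of neighbours among the brightest 30, 10 kept the same order on all 3 arrays and 4 differed by over 2 SD of their difference. As a set the top was stable: 24 of the 30 genes were among the brightest 30 on every array. The whole top decile behaved alike, with 513 of its 544 genes in the top decile of each array.

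By role, 7 of the 30 belong to glycolysis, 5 to stress proteins, 4 to the cell wall and 3 to ethanol and acetate metabolism. The glycolytic genes were TDH3, PGK1 (phosphoglycerate kinase, 12.94 ± 0.05), GPM1 (phosphoglycerate mutase, 12.83 ± 0.08), FBA1 (aldolase, 12.76 ± 0.04), CDC19 (pyruvate kinase, 12.43, 12.59 and 12.62), ENO1 (12.45 ± 0.13) and ENO2 (12.44 ± 0.07), both enolases. The stress genes were HSP12, HSP26 (a small chaperone, 13.02 ± 0.05), DDR2 (12.84 ± 0.04), and the hydrophilins GRE1 (12.65 ± 0.27) and SIP18 (12.44 ± 0.17). Hydrophilins are water-binding proteins linked to drying and osmotic stress. The cell wall genes were CCW12 (13.01 ± 0.05), CWP2 (12.74 ± 0.02), TIP1 (12.69 ± 0.05) and SED1 (12.65 ± 0.02), all mannoproteins of the wall.

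The remaining members of the brightest 30 were more mixed. ALD4, the mitochondrial aldehyde dehydrogenase, had 12.88 ± 0.03, ADH2, the alcohol dehydrogenase that oxidises ethanol, had 12.69 ± 0.03, and PDC1, pyruvate decarboxylase, had 12.42 ± 0.05. RPL10 (12.62) and RPS4B (12.50, with a suffix for shared probes) were the only ribosomal protein genes among the 30. HYP2, translation factor eIF5A, had 12.41, CPR1, a proline isomerase, 12.69, and AHP1, a peroxiredoxin, 12.54. The 5 that fall in no list were NCE103 (carbonic anhydrase, 12.70), CUP1-1 (metallothionein, 12.68), HOR7 (12.55), NCE102 (12.47) and RDL1 (12.42). CUP1-1 lies in a tandem array of near-identical copies, so its signal is not that of 1 copy.

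GRE1 and SIP18 were the least settled of the brightest 30. GRE1 had 12.34 on replicate 4 against 12.82 and 12.80 on replicates 8 and 9, which put it at rank 32 on replicate 4 and rank 10 on each of the others. SIP18 had 12.24, 12.56 and 12.52, at ranks 42, 23 and 24. ENO1 moved the same way, with 12.30, 12.54 and 12.51. For all 3 genes replicate 4 was the low array, and replicates 8 and 9 lay close together.

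**Figure D2:**
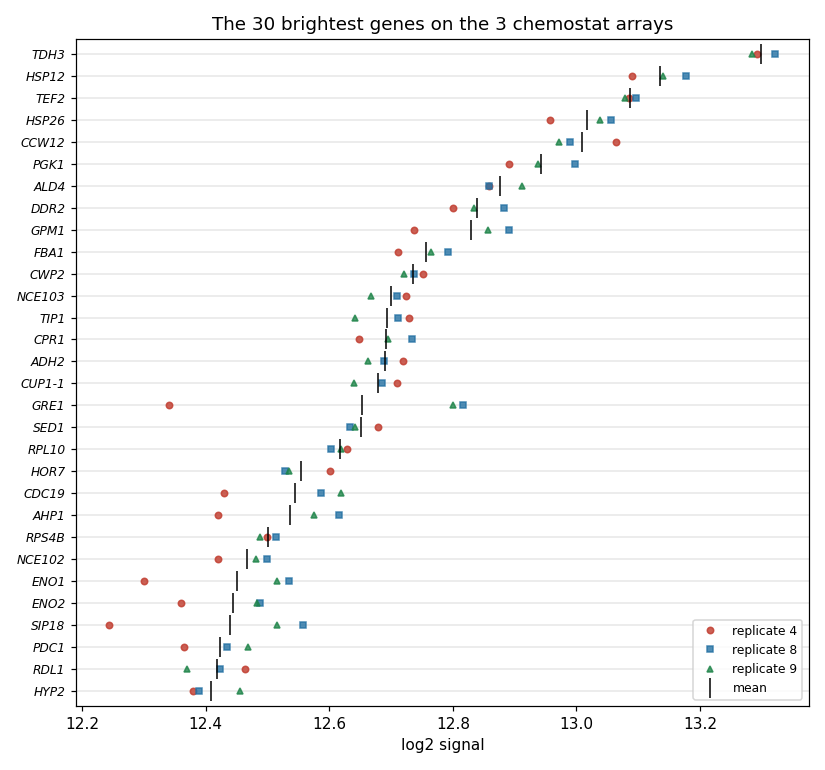
Log2 signal of the 30 brightest genes on each of the 3 chemostat arrays, in order of their mean. TDH3, HSP12 and TEF2 kept the first 3 places on each array, while GRE1 and SIP18 were lower on replicate 4 than on replicates 8 and 9.

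Few of the many hexose transporter genes had a bright signal. HXT7, a high-affinity transporter, had 11.82, 11.79 and 11.84, HXT2 had 11.28, 11.19 and 11.24, and HXT5, a transporter known from slow-growing cells, had 10.78, 11.04 and 11.14. The 3 genes ranked 107, 223 and 294 of 5449, and none of the other 12 measured members was in the top decile. HXT4 (8.20 ± 0.20) and HXT3 (7.67 ± 0.31) were near the median gene. HXT1, the low-affinity transporter of high glucose, had 6.01, 5.75 and 5.76 and was at or below the floor on 2 arrays. HXT8, HXT11, HXT13, HXT14, HXT15, HXT17 and GAL2 were at the floor on all 3 arrays, which is 7 of 15 members against 5.16% of all genes. HXT6 is nearly identical to HXT7 and was not analysed here, and the HXT7 probe set carries the suffix for shared probes, so its signal may hold both.

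Glucose phosphorylation was led by HXK1. It had 12.05, 12.08 and 12.02, GLK1 had 11.61, 11.64 and 11.60, and HXK2 had 9.99, 9.88 and 9.997. HXK2 is the hexokinase known to take part in glucose repression, and it was lower than the other two on every array, at rank 663 against 67 and 137. Of the 16 measured glycolytic genes, 13 were in the top decile and none at the floor, against 9.98% and 5.16% of all genes. Their median was 12.21.

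In several steps of glycolysis 1 isozyme was far above the rest. TDH3 exceeded TDH1 (11.55, 11.95 and 11.96) by 1.48 ± 0.23, with TDH2 not analysed here. GPM1 exceeded GPM2 by 4.61 ± 0.03, and GPM3 was dimmer still at 6.59. CDC19 exceeded PYK2, the pyruvate kinase known to be repressed by glucose, by 4.98 ± 0.14, and PYK2 at 7.57 was below the median gene. PFK26 exceeded PFK27, both makers of the regulator fructose 2,6-bisphosphate, by 2.43 ± 0.01. The subunits of phosphofructokinase, PFK2 and PFK1, lay close together at 10.51 and 10.24. Enolase was the exception, since ENO1 minus ENO2 was -0.06, 0.05 and 0.03 on the 3 arrays, and the brighter of them changed between arrays.

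At the pyruvate branch, PDC1 (12.36, 12.44 and 12.47) lay 2.76 ± 0.42 above PDC6 (9.12, 9.90 and 9.96), and PDC5 had 9.22 ± 0.03. PDC6 was brighter than PDC5 on replicates 8 and 9 and dimmer on replicate 4. Of the pyruvate carboxylases, PYC1 had 11.18 ± 0.04, above PYC2 with 9.97 ± 0.07. Of the mitochondrial pyruvate carrier genes, MPC3 (11.53 ± 0.10), which replaces MPC2 in respiring cells, exceeded MPC2 (10.94 ± 0.08), and MPC1 had 9.65 ± 0.05.

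Among alcohol dehydrogenases the ethanol-oxidising enzyme ranked above the ethanol-forming one. ADH2 had 12.72, 12.69 and 12.66, and ADH1 had 12.22, 12.20 and 12.23, a difference of 0.48 ± 0.04. The mitochondrial ADH3 followed with 10.62, then SFA1 with 9.84, ADH6 with 9.35, ADH5 with 8.68 and ADH4 with 7.23. ADH7 was at the floor on all 3 arrays with 5.30. The difference between ADH2 and ADH1 was thus many times its spread over the arrays, but it is one between probe sets and not between transcript numbers.

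In acetate metabolism ALD4 and ACS1 were the brightest members of their groups. ALD4 (12.86, 12.86 and 12.91) exceeded the cytosolic ALD6 (12.29, 12.20 and 12.32) by 0.61 ± 0.05, and ALD5, ALD3 and ALD2 had 10.005, 8.56 and 8.01. ACS1, the acetyl-CoA synthetase known to be repressed by glucose, had 11.92, 11.97 and 11.99, and ACS2 had 10.32, 10.22 and 10.34. ACS1 minus ACS2 was 1.67 ± 0.07. Of the 17 genes of ethanol and acetate metabolism, 10 were in the top decile and none at the floor, against 9.98% and 5.16% of all genes.

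Genes of the tricarboxylic acid cycle and the respiratory chain were high almost throughout. In the cycle 13 of 17 were in the top decile, with a median of 11.02, and in the respiratory chain and ATP synthase 34 of 38, with a median of 11.15. Neither list had a gene at the floor, against 5.16% of all genes. ATP1, the alpha subunit of ATP synthase, led with 12.22 ± 0.02, then QCR7 of complex III with 11.91, CIT1 (citrate synthase) with 11.90 and SDH2 of succinate dehydrogenase with 11.80. Against the median gene at 7.97, the dimmest member of the cycle, CIT3, still had 9.45.

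The respiratory isozymes were strongly unequal. COX5A, the aerobic form of cytochrome c oxidase subunit 5, had 11.52, 11.41 and 11.38, and COX5B, the hypoxic form, 6.30, 6.33 and 6.27, a difference of 5.14 ± 0.08. CYC1 exceeded CYC7, the second cytochrome c, by 3.99 ± 0.19. PET9, the main ADP/ATP carrier, had 12.13 ± 0.02, AAC1 had 8.87 ± 0.25, and AAC3, the anaerobic form, had 5.87 and was at or below the floor on 2 arrays. NDE1 (10.87) led the single-subunit NADH dehydrogenases, and NDI1 (9.78) and NDE2 (9.74) lay close together below it.

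The compartment forms of the cycle enzymes were closer to each other. Mitochondrial MDH1, cytosolic MDH2 and peroxisomal MDH3 had 11.47 ± 0.04, 11.001 ± 0.158 and 10.60 ± 0.04. CIT1 exceeded peroxisomal CIT2 (11.05, 10.53 and 10.59) by 1.18 ± 0.26. IDP2, IDP1 and IDP3, the cytosolic, mitochondrial and peroxisomal NADP isocitrate dehydrogenases, had 10.76, 10.50 and 9.26. ACO1 (11.02) and SDH1 (10.77) were the only measured members of their groups.

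Gluconeogenesis and the glyoxylate cycle let cells grow on acetate or ethanol. The brightest gene of this list was JEN1, a lactate and pyruvate transporter rather than an enzyme, with 11.86, 12.07 and 12.11. PYC1 and MDH2 came next, at 11.18 and 11.001. The committed enzymes of gluconeogenesis were dimmer, PCK1 with 8.66 ± 0.75 at rank 1688 and FBP1 with 8.25 ± 0.51 at rank 2226. In all, 7 of 17 members were in the top decile and none was at the floor, against 9.98% and 5.16% of all genes. ICL1, isocitrate lyase, had 11.03, 10.46 and 10.29, and MLS1, malate synthase, had 9.95, 9.31 and 9.07, both highest on replicate 4. MLS1 exceeded DAL7 by 2.20 ± 0.61 and ICL1 exceeded ICL2 by 0.89 ± 0.49, so the size of both differences rested on the array while the direction did not. The dimmest member was CAT8, the activator of these genes, with 7.74.

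Fat oxidation and storage carbohydrate genes were intermediate. FOX2, the multifunctional beta-oxidation enzyme, had 11.12, and CTA1, the peroxisomal catalase, had 10.62. The peroxisomal list had 4 of 14 members in the top decile and a median of 9.66. Of the 17 trehalose and glycogen genes, TPS1 alone, at 10.46, was in the top decile, followed by GLC3 (10.23) and UGP1 (10.16). PGM2 exceeded PGM1 by 2.46 ± 0.21, TSL1 exceeded TPS3 by 1.27 ± 0.09, NTH1 exceeded NTH2 by 1.01 ± 0.05, GSY2 exceeded GSY1 by 0.66 ± 0.01, and GLG2 exceeded GLG1 by 0.53 ± 0.01.

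In the pentose phosphate pathway the same form led on all arrays in 2 of 4 groups. TAL1 exceeded NQM1 by 0.92 ± 0.13 and GND1 exceeded GND2 by 0.59 ± 0.24. TKL1 minus TKL2 was 0.48 on replicate 4, -0.05 on replicate 8 and 0.12 on replicate 9, and SOL3 minus SOL4 was 0.52, -0.08 and -0.05. In these 2 groups the brighter gene was not the same on all arrays, and replicate 4 gave the large difference. In glycerol synthesis GPD1 exceeded GPD2 by 4.37 ± 0.13, and GPP1 exceeded GPP2 by 1.49 ± 0.04. DLD1, the mitochondrial D-lactate dehydrogenase, had 9.92, DLD3 had 9.70 and DLD2 had 8.97.

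**Figure D3:**
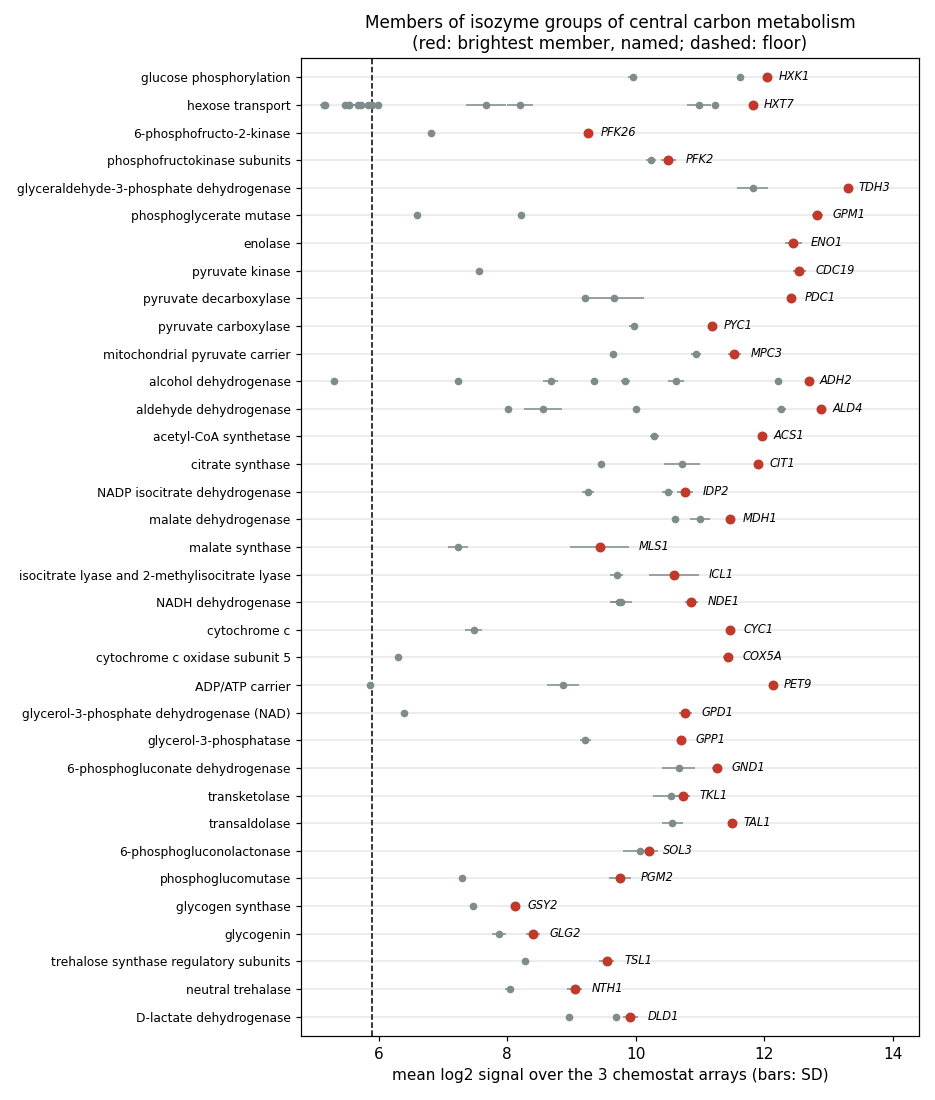
Mean log2 signal of each measured member of the isozyme groups of central carbon metabolism, with the SD over the 3 chemostat arrays as bars, the brightest member in red and the floor as a dashed line. One member lies far above the others for pyruvate kinase, cytochrome c oxidase subunit 5 and phosphoglycerate mutase, while the enolases coincide.

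Counted over the 35 groups of central metabolism with at least 2 measured members, the same gene was brightest on all 3 arrays in 32, and the whole order was the same in 29. The difference between the brightest member and the next was over 1 log2 unit in 18 groups, over 2 in 10, and under 2 SD of itself in 5, with a median of 1.01. Among 49 other groups of duplicated genes, the brightest gene was the same in 44 and the median difference was 0.87. The largest differences there were HYP2 over ANB1, the hypoxic eIF5A (5.47 ± 0.02), TSA1 over TSA2, peroxiredoxins (4.501 ± 0.117), LEU4 over LEU9 of leucine synthesis (3.79 ± 0.04), GDH1 over GDH3, NADP glutamate dehydrogenases (3.03 ± 0.09), and URA5 over URA10 of pyrimidine synthesis (2.69 ± 0.16). ANB1 (6.94), and in central metabolism COX5B (6.30), GPD2 (6.40) and PFK27 (6.82), lay between the floor and about 7. Such a signal does not by itself show a transcript, so the size of their differences is uncertain. The smallest were SER3 and SER33 of serine synthesis, ZRT2 and ZRT1 (zinc transporters), FAA4 and FAA1 (acyl-CoA synthetases), CLN1 and CLN2 (G1 cyclins) and RNR4 and RNR2 (ribonucleotide reductase small subunits). RNR4 minus RNR2 was 0.05, 0.07 and 0.09, so even this small difference had 1 sign on every array. ZRT2 minus ZRT1 was 0.30, 0.01 and -0.20, and that pair had no stable order.

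Stress and chaperone genes ranked high as groups. Of the 20 genes for hydrophilins and stress proteins, 13 were in the top decile, with a median of 11.21. Of 20 protein folding genes, 17 were in it, with a median of 11.26, led by CPR1 (12.69), SSA1 (12.03) and SSB1 (11.91). The SSB1 probe set carries the suffix for shared probes. SSB1 minus SSB2, a pair of ribosome-associated Hsp70 genes, was 0.61 ± 0.04 with it. When probe sets with that suffix were left out, the difference was -0.037 ± 0.080, which is within its spread. Of 20 oxidative defence genes, 11 were in it, led by AHP1 (12.54), SOD1 (superoxide dismutase, 12.08) and TSA1 (11.87). The cytosolic Hsp70 SSA3, known as a stress-induced form, had 11.80, 12.56 and 12.58, and SSA1 had 11.91, 12.10 and 12.10. SSA3 was thus the brighter on replicates 8 and 9 and the dimmer on replicate 4.

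Protein synthesis genes split into a very bright part, the ribosome itself, and a moderate part, the machinery that builds it. Of the genes for the large subunit 73 of 75 were in the top decile, and of those for the small subunit 50 of 52, with medians of 11.38 and 11.40. RPL10, RPL2A (12.38) and RPL28 (12.30) led the large subunit, and RPS4B, RPS8A (12.35) and RPS12 (12.27) the small one. The dimmest were RPL15B with 8.93 and RPS9A with 10.11. By contrast none of the 46 ribosome biogenesis genes was in the top decile or at the floor, against 9.98% and 5.16% of all genes. Their median of 8.26 was near that of all genes. GAR1 (10.03), NOP58 (9.94) and NOP1 (9.92), nucleolar proteins that modify ribosomal RNA, were the brightest of them, and PWP2 (6.85) the dimmest. RNA polymerase subunits were alike, with 0 of 31 in the top decile, a median of 8.52 and RPB8 (9.76) on top.

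Many ribosomal proteins of this yeast have a pair of gene copies, A and B. Of 50 measured pairs, A was brighter on all 3 arrays in 29 and B in 21, so no pair changed order between arrays. The median size of the difference was 0.60, and it was over 1 in 13 pairs. RPL15A over RPL15B differed by 2.28, 2.10 and 2.23. The copies are near-identical in sequence and 15 of the pairs have a probe set with the suffix for shared probes, so that the signals of such pairs are uncertain.

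**Figure D4:**
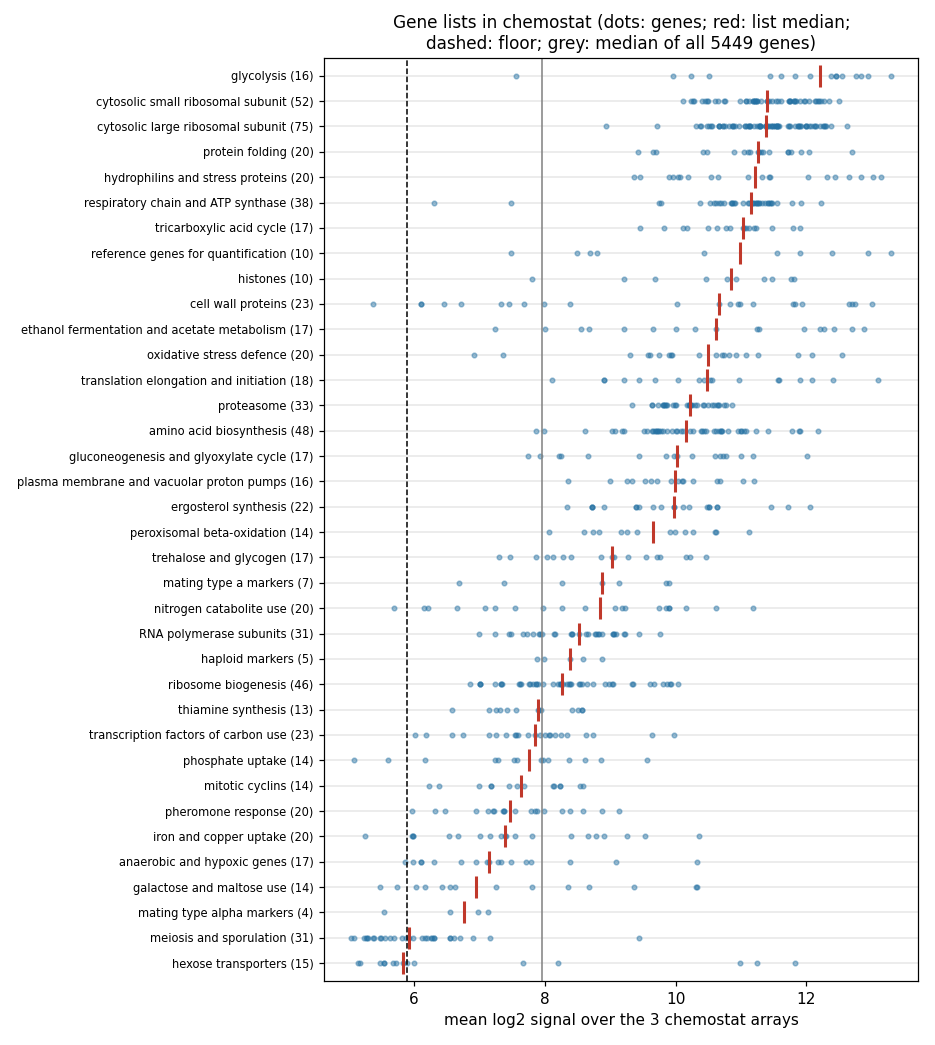
Spread of the mean log2 signals of each gene list over the 3 chemostat arrays, sorted by list median, beside the median of all genes. Glycolysis (median 12.21) and the ribosomal subunits lie at the top, and hexose transporters (5.84) and meiosis and sporulation (5.92) at the bottom, near the floor.

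Genes known for meiosis and sporulation, which haploid cells do not undergo, were low. Of the 31 listed meiosis and sporulation genes, 14 were at the floor, against 5.16% of all genes, and none was in the top decile, with a median of 5.92. Those at the floor included SPO11, which makes the breaks that start meiotic recombination (5.63), the strand-break partners MEI4 (5.38) and REC114 (5.30), the kinase MEK1 (5.29), and IME4 (5.09). IME1, the master regulator of meiosis, had 6.98, 7.30 and 7.19. SPS100, a spore wall gene, was the exception with 8.88, 9.70 and 9.77. MEI5 was the dimmest at 5.04.

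Anaerobic and hypoxic genes had a median of 7.14, with 1 of 17 in the top decile. That gene was PAU23, a wall mannoprotein of a large and similar family, with 10.33. The repressor ROX1 had 9.09 and TIR2 had 8.39. Sugar-use genes were uneven: SUC2 (invertase, 10.32), MAL32 (maltase, 10.31, shared probes) and MAL11 (maltose transporter, 9.36) were bright, while GAL7 (5.74) and GAL2 (5.48) of galactose use were at the floor.

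Nutrient uptake genes showed which transporters were bright or at the floor. The high-affinity phosphate transporter PHO84 (5.66, 5.60 and 5.58) and the acid phosphatase PHO5 (5.10, 5.07 and 5.08) were at the floor, while VTC1, VTC2 and PHO8, of polyphosphate storage and vacuolar phosphatase, had 9.57, 8.61 and 8.87. In nitrogen use GLN1 (glutamine synthetase, 11.18), MEP2 (high-affinity ammonium permease, 10.61) and CAR2 (10.16) were the brightest, and DAL1 of allantoin use was at the floor with 5.69. Amino acid synthesis had 23 of 48 genes in the top decile, led by ILV5 (12.17), MET17 (11.90) and ARG1 (11.89). Of the iron and copper uptake genes 1 of 20 was in the top decile, CTR3 with 10.36, and ARN2 was at the floor with 5.25. Those genes varied most between the arrays, as given below.

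Some features that the rule did not use were more frequent among the genes at the floor, though most of those genes had a name and lay away from chromosome ends. How far the features overlap was not examined. Genes with only a systematic name were at the floor in 134 of 499 cases (26.9%), and named genes in 147 of 4950 (2.97%). Of the 10 outermost protein-coding genes at each chromosome end, in gene order on assembly R64, 58 of 235 (24.7%) were at the floor, against 223 of 5214 (4.28%) elsewhere. The median annotated gene length was 649 bases for genes at the floor and 872 bases for the top decile, against 1236 bases for all genes. Length was largest in the middle and lower ranks, with a median of 1554 bases in the eighth decile counted from the brightest. Next to the cutoff, YBR184W, MUM3 and MCM10 lay just above with 5.90, and each was at or below the floor on 1 array. HXT10, YFL067W and HES1 lay just below with 5.89 and were at or below the floor on 2, 1 and 1 arrays.

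Few genes spread widely between the arrays, and those that did followed replicate 4. An SD over 0.5 was found in 15 genes (0.275%), all above the floor on every array, and in each of the 15 replicate 4 was the outer array. FIT2 and FIT3, wall proteins that retain iron-carrying siderophores, had 9.78, 8.26 and 7.96, and 10.54, 9.09 and 8.95. FET3, the oxidase of high-affinity iron uptake, had 8.47, 6.82 and 6.87, and FTR1, its permease partner, 9.37, 8.47 and 8.52. SIT1, a siderophore transporter, had 7.90, 6.84 and 6.77. All 5 iron genes were high on replicate 4 alone.

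The copper transporters went the other way. CTR1 had 8.08, 9.30 and 9.35, and CTR3 had 9.63, 10.70 and 10.74, both low on replicate 4. HSP30, a stress protein of the plasma membrane, had 9.13, 10.71 and 10.73, and YDL218W had 9.81, 11.33 and 11.32. PDR12, a transporter that exports weak acids, had 9.08, 10.01 and 10.40, and OYE3, an NADPH oxidoreductase, had 7.81, 8.71 and 8.80. GIP2, a regulator of protein phosphatase, had 7.42, 8.26 and 8.34. Each of these was lowest on replicate 4.

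PCK1 and FBP1, the committed enzymes of gluconeogenesis, had 9.52, 8.32 and 8.14, and 8.83, 8.03 and 7.89. AGP1, an amino acid permease, had 8.59, 7.71 and 7.60. All 3 were highest on replicate 4. With replicate 4 left out, no gene had an SD over 0.5 between replicates 8 and 9.

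**Figure D5:**
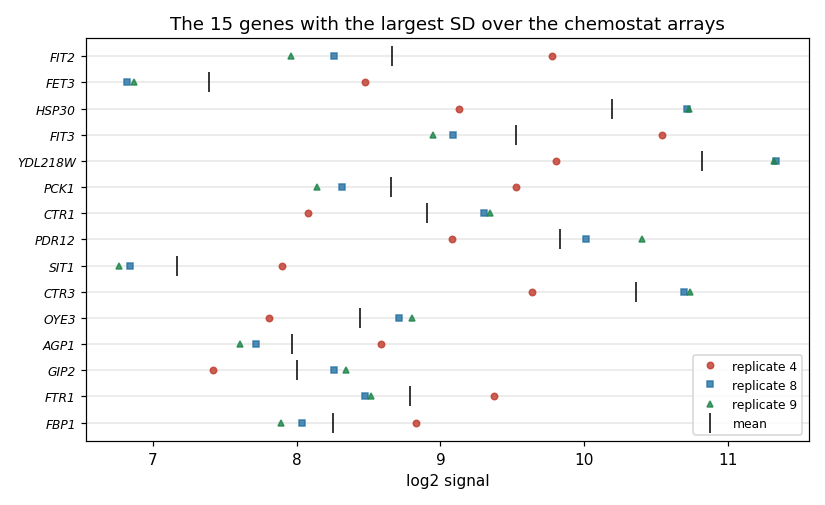
Log2 signal of the 15 genes with the largest SD, on each chemostat array, with the mean as a vertical bar. Replicate 4 lies apart in all 15, above the other arrays for the iron genes FIT2, FET3, FIT3, SIT1 and FTR1 and below them for CTR1, CTR3 and HSP30.

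Among all 5128 genes above the floor, 25 (0.488%) were over 0.5 higher on replicate 4 than the mean of the others and 31 (0.605%) over 0.5 lower. On replicate 8 the counts were 4 and 4, and on replicate 9 they were 7 and 10. For replicates 8 and 9 the mean of the others includes replicate 4, so these counts can mirror its deviations. They do not show that replicate 8 or 9 deviated on its own. Of the 17 iron and copper uptake genes above the floor, 7 were higher on replicate 4 and 3 lower. Gluconeogenesis and the glyoxylate cycle had 4 of 17 higher and none lower, with a median deviation of 0.24. The a-cell markers had 3 of 7 higher (MFA1, MFA2 and STE2), with a median deviation of 0.42. Hydrophilins and stress proteins had 6 of 20 lower and none higher, with a median deviation of -0.29. Glycolysis, the tricarboxylic acid cycle, the respiratory chain, ribosomal proteins, protein folding and the proteasome had none beyond 0.5 in either direction. In lists of these sizes none is near the shares of all genes, 0.488% and 0.605%. Median deviations were -0.10 for glycolysis, -0.15 for protein folding, 0.11 for the respiratory chain and 0.04 for the tricarboxylic acid cycle. They were 0.02 for each ribosomal subunit and -0.01 for the proteasome. The Hsp70 genes SSA3 and SSA4 were counted with the stress proteins. The arrays' overall levels were alike, with gene medians of 7.96, 7.97 and 7.97. The cause of the deviations of replicate 4 was not tested.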

How the data were processed

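The deposited table holds log2 values for each probe set on each array; the authors obtained them with PLIER (per the submitters' processing notes). The PLIER version, background correction and any between-array step were not stated in what was used here, and the log scale with its base was inferred from the range of values. No scaling was added. Probe sets numbered 10928, of which 5498 matched a single S. cerevisiae gene, 1746 S. pombe, 213 were controls, 1 named several genes and 3470 had no gene in the annotation used. Where a gene had several (47 genes), its brightest probe set was taken; 117 genes rest on a probe set with a suffix for shared probes. Symbols were updated through the RefSeq gene table of assembly R64. On each array the floor was the S. pombe 95th percentile.

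Means, SDs, ranks and counts were computed with Python 3.11.15, pandas 2.3.3 and numpy 2.4.6, and the scripts were checked on simulated data. No test was made, since 1 group of 3 arrays is described, and the number of arrays limits the precision. The members, the 36 gene lists and the isozyme groups were chosen with earlier results of these data known. The text names the 30 brightest genes, the 15 with the largest SD, the 3 nearest the floor on each side, members of the central isozyme groups and of the 5 largest and 5 smallest differences in other groups, the 3 brightest and the dimmest member of each list, list members at the floor, mating type markers and the 5 brightest S. pombe probe sets. SSA3 and SSA1 as a pair, RPL15A, HTA2, HTA1, SSB1 and SSB2 were named after their values were seen. The alternatives tried were other floors, quantile normalization, centring on the gene median, averaged probe sets, the linear mean or the median of the arrays, genes without shared probe sets, the range in place of the SD, the brightest isozyme by the mean, and each replicate left out.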

Additional observations from a re-analysis of the deposited data

How the results depend on the processing

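With the S. pombe 90th percentile 157 genes were at the floor, with the 99th percentile 1502, and with S. pombe and unannotated probe sets together 716, against 281 as reported; the other 8 of 11 alternatives stayed within 1.5 times. The count of genes with an SD over 0.5, 15 as reported, was between 0 (without replicate 4) and 31 (without replicate 8) when 1 array was left out. Between 27 and 30 of the brightest 30 genes were kept under 9 alternatives, and between 519 and 544 genes of the top decile. Groups with the same brightest isozyme on all arrays numbered 75 to 80 under 7 alternatives, against 76 of 84 as reported (counting by the mean gives all 84 by construction), and 25 of the 36 list medians lay above the all-gene median under each of 7. Of 252 list medians recomputed, 235 moved by less than 1 SD. Of 586 isozyme differences recomputed, 580 moved by less than 1 SD. For many of them this was fixed in advance. Leaving out 1 of 3 arrays cannot move a mean of the same probe sets by 1 SD, and centring leaves each difference unchanged. A change of sign was counted as a reversal only where the reported difference was over 2 SD, and 3 reversed by that rule. Smaller differences that changed sign were not counted, such as SOL3 minus SOL4, which was -0.08 and -0.05 on replicates 8 and 9. HTA2 minus HTA1 became -0.53 ± 0.06 when probe sets of a gene were averaged and -1.40 ± 0.12 without shared probe sets. SSB1 minus SSB2 became -0.037 ± 0.080 without shared probe sets, which is within its spread, so that pair was not separable there. Signal near the floor limits the description of dim genes.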

Other observations

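Several gene groups of growth and upkeep lay between the extremes. Of 33 proteasome genes, 14 were in the top decile, with a median of 10.21, led by PRE6 with 10.86, and the dimmest, RPN13, had 9.34. Ergosterol synthesis had 8 of 22 genes in it, led by ERG25 (12.05), ERG11 (11.72) and ERG6 (11.45). Histone genes had a median of 10.85, led by HTA2 (11.81, with shared probes), with CSE4, the centromeric histone, lowest at 7.80. Proton pump genes had 5 of 16 in the top decile, led by VMA3 (11.20) of the vacuolar pump and PMA1 (11.02) of the plasma membrane.

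Regulators were dimmer than these groups, with list medians a little below the 7.97 of all genes. The 14 cyclin and cyclin inhibitor genes had a median of 7.63, with PCL1 highest at 8.58 and CLB2 lowest at 6.23. The 23 transcription factors of carbon use had a median of 7.85, and 10 of them lay above the all-gene median. TYE7 (9.98) and HAP4 (9.64), the activating subunit for respiratory genes, were on top and MIG2 (6.02), a glucose repressor, was lowest. Neither list had a gene in the top decile, against 9.98% of all genes, which in lists of these sizes is not far from that share. Thiamine synthesis had a median of 7.90, and pheromone response one of 7.47, with PRM1 lowest at 5.97. Reference genes used for quantification were spread between TDH3 at 13.30 and TFC1 at 7.48, with ACT1 at 12.39, 12.40 and 12.39 on the 3 arrays.

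By name, and chosen after their values were seen, 9 of 11 HSP genes were in the top decile, against 9.98% of all genes, while 7 of 18 SPO genes and 6 of 14 HXT genes were at the floor, against 5.16% of all genes.

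Of the 1746 S. pombe probe sets, 85 were above the floor on all 3 arrays and 8 above the median S. cerevisiae gene. The brightest were those of ubi3 (9.39, with a suffix for shared probes), gpd2 (9.04), ssa2 (8.69), ubi1 (8.54) and rad25 (8.43). Of the 3470 unannotated probe sets, 343 were above the floor on all 3 arrays and 101 above the median gene, the highest at 12.06.

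The control probe sets for the 3' and 5' ends of 18S ribosomal RNA differed between arrays, with the 3' end minus the 5' end at -4.38, -4.11 and -3.27, and those of 25S ribosomal RNA had 0.88, 0.76 and 0.08. Replicate 9 was the outer array in both, whereas the controls for ACT1 had 0.54, 0.51 and 0.56.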
